A study of Mus musculus with 6 samples.

Results

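The interferon response and nucleic acid sensing were followed through 36 genes, of 53390 genes quantified, in mouse embryonic stem (ES) cells that lack the DNA methyltransferases. The 36 genes are a list of names chosen for their roles, with earlier results of these data known. They cover RNA sensors with their adaptor, proteins binding or editing double-stranded RNA, transcription factors of the interferon response, and genes that interferon switches on. RNA-seq was done on 6 libraries, 3 labelled TKO-2i and 3 labelled TKO-serum, and the comparison between them asks how the genes differ between 2 culture media when the genotype is held constant. All 6 came from TKO cells, which carry Dnmt1-/-, Dnmt3a-/- and Dnmt3b-/-. TKO-serum cells grew with 15% FCS (foetal calf serum) and 500 U/ml LIF (leukaemia inhibitory factor), and TKO-2i cells in serum-free N2B27 with 1000 U/ml LIF, 1 uM of the MEK inhibitor PD0325901 and 3 uM of the Gsk3 beta inhibitor CHIR99021. Serum, LIF dose and both inhibitors therefore changed together and cannot be told apart. The line goes back to male J1 cells of the 129S4/SvJae strain and was grown on gelatin without feeder cells. No wild-type library was analysed here, so nothing below measures an effect of losing methylation.

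Cells detect viral or misplaced nucleic acid with cytosolic sensors. Ddx58 (RIG-I) and Ifih1 (MDA5) recognise double-stranded RNA and signal through Mavs on mitochondria, cGAS senses DNA and signals through STING, and both routes lead through kinases to Irf3 and Irf7 and so to interferon genes. Secreted interferon binds its receptors and, through Jak kinases, activates a complex with Stat2 and Irf9 that binds the interferon-stimulated response element. Pluripotent cells are known for making little interferon and for a muted response to it.

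The libraries held 46228700, 44180642 and 43896549 estimated counts in TKO-2i replicates 1 to 3, and 38274042, 51932739 and 44827609 in TKO-serum replicates 1 to 3. Values for single libraries are given below in that order. At these depths a floor of 3 counts corresponds to 0.0564 to 0.0778 CPM (counts scaled to library size), a limit that covers counting error only. Levels are compared between genes in TPM, which is scaled for both transcript length and library size.

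Transcripts of all 3 knocked-out genes were counted in every library. Dnmt1 had 29.1, 34.6 and 29.3 TPM in TKO-2i and 25.7, 28.6 and 27.9 TPM in TKO-serum. For Dnmt3a the TPM values were 4.30, 5.19 and 4.54 against 21.3, 23.0 and 22.8. Dnmt3b stood at 6.71, 9.53 and 8.49 TPM against 18.7, 20.9 and 20.7 TPM. The log2 fold changes of TKO-2i over TKO-serum were 0.24 for Dnmt1, -2.04 for Dnmt3a and -1.11 for Dnmt3b. That of Dnmt1 did not pass in limma on log2(TPM + 0.1) (0.18) or log2(TPM + 1) (0.17). Reads of a gene can lie outside its deleted part, so these levels check neither the genotype nor the loss of protein. Of 6 ES cell markers (Pou5f1, Sox2, Nanog, Zfp42, Esrrb and Dppa5a) all were expressed, with summed levels of 5062, 4580 and 4573 TPM in TKO-2i and 5658, 5309 and 5420 TPM in TKO-serum. Dppa5a was the most abundant of them. Nanog (0.60) and Esrrb (0.33) were higher in TKO-2i, Sox2 (-0.41) and Zfp42 (-0.40) lower, and Pou5f1 and Dppa5a did not pass.

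The media were compared by a quasi-likelihood fit in edgeR of all 18177 genes that passed a filter on low counts, with Benjamini-Hochberg adjustment over them. A gene passed when its adjusted p was under 0.05. These p-values measure the spread between samples labelled biological replicates. Of the 36 members, 30 were tested, and the filter left out 6: Ifih1, Irf7, Ifit3, Isg15, Usp18 and Rtp4. Without the filter edgeR tested these 6 and none passed, or had an unadjusted p under 0.05; nor did any with DESeq2, which gave an adjusted p for 4 of them. Among the 30, 20 passed (66.7%), beside 62.5% of all tested genes. In TKO-2i 11 were higher (36.7%), where 31.9% of all tested genes were, and 9 were lower (30%), where 30.6% were. With a fold change of at least 2 as a further condition, 6 were higher and 6 lower (20% each), beside 7.72% and 15.6% of all tested genes. None of these shares was tested against that of all genes. The median log2 fold change was 0.09 over the tested members and 0.01 over all tested genes. Bulk RNA cannot tell fewer expressing cells from less RNA in each cell. Of the 20 members that passed, 17 did so in the same direction in each of 14 alternative fits that tested them, and the other 3 were Oas2, Adar and Parp14. A minimum of 10 counts in every library left Oasl2, Ifit1, Gbp3 and Gbp7 out of 1 of those fits.

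**Figure D1:**
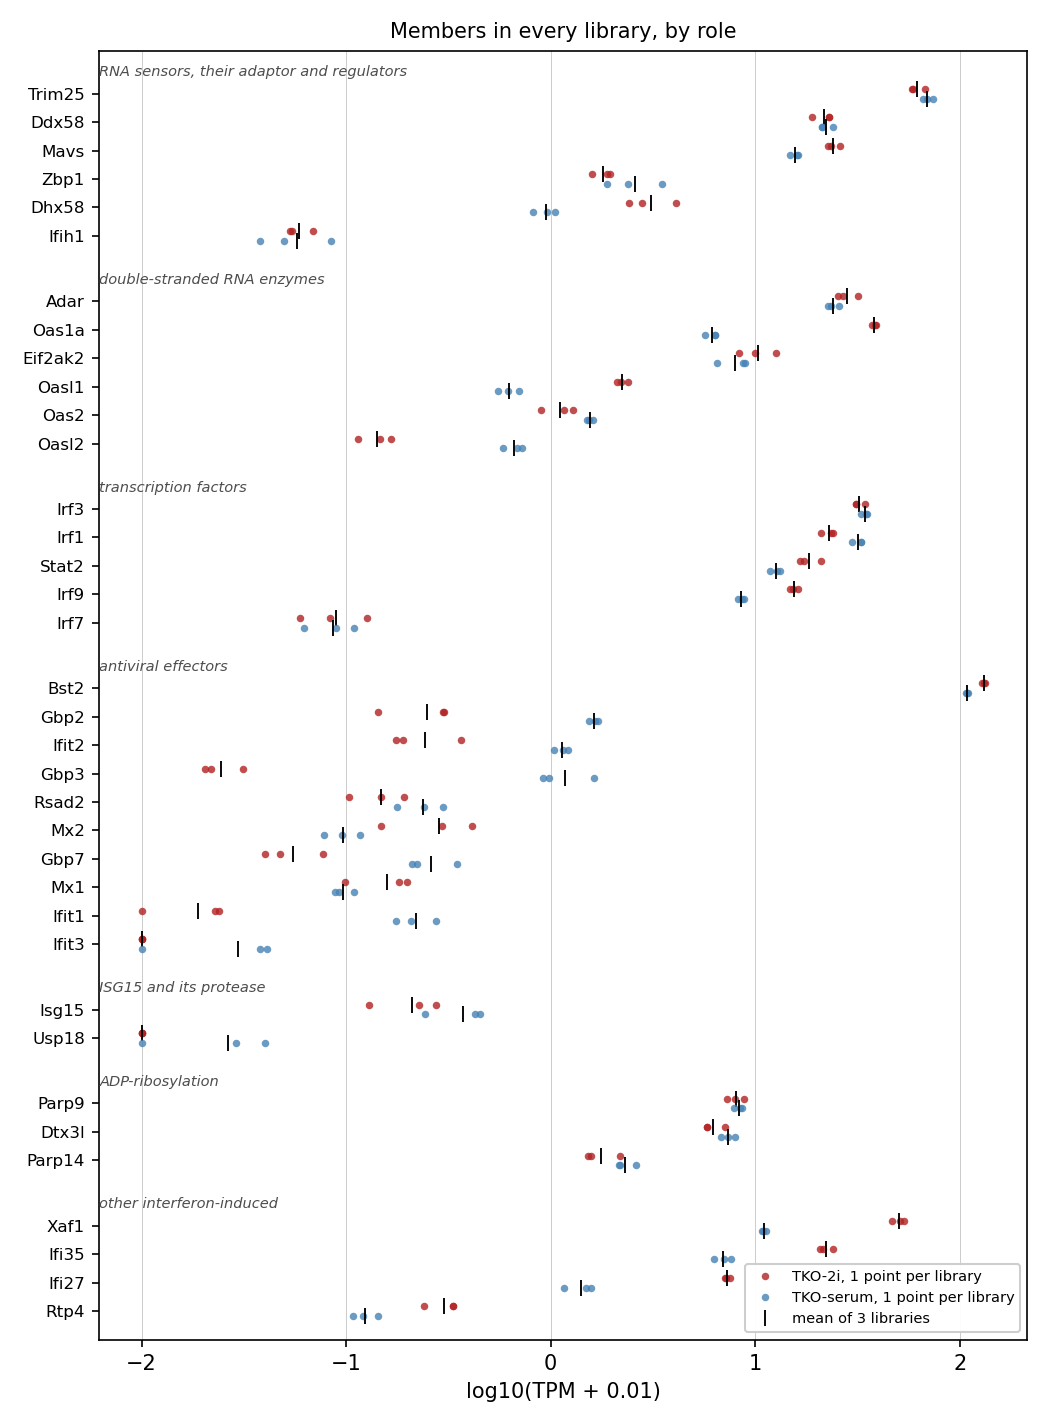
TPM of each of the 36 members on a log10 scale, after adding 0.01, with 1 point per library (red, TKO-2i; blue, TKO-serum) and a black bar at the mean of 3 libraries. Levels run from 0 for Usp18 and Ifit3 in TKO-2i to a mean of 131 TPM for Bst2, and the groups are far apart for Oas1a, Xaf1 and Ifi27 (red right of blue) and for Gbp2 and Gbp3 (blue right of red).

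Among the RNA sensors and their partners, Ddx58 and its adaptor were well expressed and Ifih1 nearly silent. Ddx58 had 19.0, 23.1 and 22.9 TPM in TKO-2i and 21.2, 24.0 and 21.1 TPM in TKO-serum. The ranges overlap, and its log2 fold change of 0.07 did not pass (SE 0.08, adjusted p 0.45). Ifih1 had 5, 4 and 7 counts against 3, 5 and 10 and was left out by the filter. Dhx58 (LGP2), a helicase that binds RNA without signalling itself and tunes the other sensors, had 2.40, 4.09 and 2.79 TPM in TKO-2i against 0.808, 0.954 and 1.04 TPM in TKO-serum. All TKO-2i libraries lay above all TKO-serum libraries, and Dhx58 rose by 1.92 on the log2 scale (SE 0.16, adjusted p 1.3e-05).

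Mavs, the adaptor on the mitochondrial membrane, had 22.6, 26.1 and 23.5 TPM in TKO-2i and 14.7, 16.1 and 16.0 TPM in TKO-serum. The groups do not overlap, and the log2 fold change was 0.72 (SE 0.05, adjusted p 3.6e-06). Trim25, a ubiquitin ligase that acts on RIG-I signalling, was the most abundant gene of this role, with means of 61.6 ± 5.07 TPM in TKO-2i and 69.5 ± 3.96 TPM in TKO-serum (SD, n = 3 each). Its log2 fold change of -0.10 did not pass in edgeR (adjusted p 0.074), but it did at -0.12 with DESeq2's size factors and at -0.15 with a minimum of 10 counts in every library. Zbp1, a sensor of Z-form nucleic acid, had 87, 66 and 79 counts against 112, 122 and 89. Its log2 fold change of -0.42 did not pass (SE 0.18, adjusted p 0.075), whereas without TKO-serum replicate 3 it was -0.55 and passed. Summed over the 6 genes of this role, the TPM values were 105, 122 and 109.6 in TKO-2i and 106, 117 and 109 in TKO-serum, so the sums overlap.

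Of the 6 genes for proteins that bind or edit double-stranded RNA, 3 rose (50.0%), 2 fell (33.3%) and 1 did not pass. Beside them, 31.9% of all tested genes were higher and 30.6% lower. Oas1a makes 2',5'-linked oligoadenylate, the second messenger that activates RNase L. Its counts were 2963, 2396 and 2756 in TKO-2i and 392, 483 and 393 in TKO-serum, or 38.8, 37.2 and 38.3 TPM against 6.34, 6.35 and 5.64 TPM. The values were alike within each medium and wide apart between the media. Oas1a (ENSMUSG00000052776, chr5:120896256-120907521, GRCm38) rose by 2.74 on the log2 scale (SE 0.10, adjusted p 1.4e-07). Oas1g, its neighbour and not a member, rose by 2.09. Reads can be shared between such near-identical copies, so the split between them is uncertain. The sum of Oas1a and Oas1g, chosen after the values were seen, was 4089, 3443 and 3842 counts against 613, 767 and 688, a ratio of 5.73 in CPM.

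Oasl1 and Oasl2, oligoadenylate synthetase-like proteins with ubiquitin-like domains, are direct neighbours on the same strand of chromosome 5, 11005 bases apart, and went opposite ways. Oasl1 had 2.37, 2.11 and 2.18 TPM in TKO-2i and 0.606, 0.544 and 0.690 TPM in TKO-serum. Oasl2 had 0.105, 0.136 and 0.156 TPM in TKO-2i and 0.675, 0.712 and 0.575 TPM in TKO-serum. Neither gene's groups overlap, and in TKO-serum their TPM values were alike. Oasl1 rose by 1.98 (SE 0.18, adjusted p 2.1e-05) and Oasl2 fell by 2.13 (SE 0.24, adjusted p 9e-05) on the log2 scale. Oasl2 rests on 9, 10 and 14 counts in TKO-2i against 47, 58 and 47.

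Oas2, a larger synthetase, had 0.883, 1.27 and 1.15 TPM against 1.52, 1.59 and 1.49 TPM, a log2 fold change of -0.27 that passed narrowly (SE 0.10, adjusted p 0.042). It passed without TKO-2i replicate 2, but not with DESeq2 (-0.28), without the filter (-0.29), without TKO-2i replicate 1 (-0.27) or 3 (-0.26), or without TKO-serum replicate 1 (-0.28), 2 (-0.23) or 3 (-0.30). Eif2ak2 (PKR), the kinase that halts translation when it binds double-stranded RNA, had means of 10.3 ± 2.16 and 8.0 ± 1.33 TPM and did not pass (log2 fold change 0.19, adjusted p 0.17). With counts from length-scaled TPM its log2 fold change was 0.46 and passed.

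Adar edits adenosine to inosine in double-stranded RNA and so keeps the cell's own RNA from its sensors. It had 25.3, 31.9 and 26.7 TPM in TKO-2i and 22.8, 23.5 and 25.6 TPM in TKO-serum. The lowest TKO-2i value fell within the TKO-serum range in TPM, though not in CPM, and the log2 fold change was 0.30 (SE 0.06, adjusted p 0.0016). In limma on log2(TPM + 0.1) and log2(TPM + 1) it was 0.22 and 0.21 and did not pass. The gene makes a long, interferon-inducible form and a short one from different start codons. The only long-form transcript with reads, of 1152 codons, had 10.03, 10.9 and 9.25 TPM in TKO-2i and 7.87, 8.78 and 9.67 TPM in TKO-serum. The short-form transcript, of 930 codons, had 11.1, 13.6 and 11.3 TPM against 10.2, 10.8 and 10.4 TPM. The long form made up 34.2% to 39.6% of the gene's TPM in TKO-2i and 34.5% to 37.8% in TKO-serum, so its share overlaps between the media. How an estimate divides reads between transcripts of a gene is uncertain.

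Of the 5 transcription factors 4 were tested, 2 of them higher in TKO-2i (50.0%) and 1 lower (25%), again beside 31.9% and 30.6% of all tested genes. Irf9, the DNA-binding partner of Stat2, had 14.8, 16.1 and 15.3 TPM in TKO-2i and 8.20, 8.60 and 8.85 TPM in TKO-serum. Every TKO-2i library was above every TKO-serum library, and Irf9 rose by 0.95 on the log2 scale (SE 0.05, adjusted p 1.6e-06). It overlaps Rnf31 by 123 bases on the same strand, so reads there are uncertain. Stat2, its partner, had 16.6, 20.9 and 17.4 TPM against 11.9, 13.2 and 12.8 TPM. It too was higher in all TKO-2i libraries, by 0.65 on the log2 scale (SE 0.05, adjusted p 9.2e-06).

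Irf1, an activator that interferon gamma induces, went the other way, with 21.1, 23.5 and 24.0 TPM in TKO-2i and 29.8, 33.0 and 32.9 TPM in TKO-serum. It fell by 0.38 on the log2 scale (SE 0.07, adjusted p 0.0015), and the groups do not overlap. Irf3, which the sensors' kinases activate, was the most abundant factor, with means of 32.2 ± 1.88 and 34.4 ± 1.18 TPM, and did not pass (log2 fold change 0.09, adjusted p 0.24). Irf7, which amplifies interferon production, had 4, 1 and 2 counts against 1, 6 and 6 and was left out by the filter.

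Gbp2, Gbp3 and Gbp7, guanylate-binding proteins of a family of GTPases that attack the vacuoles of intracellular pathogens, were lower in TKO-2i. Gbp2 had 0.133, 0.289 and 0.290 TPM in TKO-2i and 1.52, 1.63 and 1.70 TPM in TKO-serum, a fall of 2.71 on the log2 scale (SE 0.23, adjusted p 1.5e-05). Gbp3 had 1, 1 and 2 counts in TKO-2i against 74, 98 and 82 in TKO-serum. It was close to the floor in TKO-2i only, and the ratio of TKO-serum to TKO-2i was 60.6 with a counting interval of 23.4 to 224 (95%, exact). In edgeR Gbp3 passed with an adjusted p of 7.5e-07. Gbp7 had 5, 10 and 6 counts against 29, 35 and 44 and fell by 2.28 (SE 0.32, adjusted p 0.00031). For each of these genes all TKO-serum libraries were above all TKO-2i libraries. Even in TKO-serum the most abundant, Gbp2, had a mean of 1.62 ± 0.0877 TPM. Gbp7, Gbp3 and Gbp2 are neighbours within chr3:142530342-142638008 (GRCm38), all on the plus strand. Gbp3 is ENSMUSG00000028268. Their summed counts, a sum chosen after the values were seen, were 19, 36 and 35 against 226, 301 and 282, a ratio of 8.56 in CPM that does not depend on how reads shared between these similar genes were divided.

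The Ifit genes, whose proteins bind foreign RNA ends, were also low. Ifit1 had 0, 1 and 1 counts in TKO-2i and 11, 17 and 20 in TKO-serum, a ratio of 22.9 with a counting interval of 6.0 to 195, and passed (adjusted p 0.00024). Ifit2 had 0.164, 0.353 and 0.179 TPM against 1.03, 1.13 and 1.20 TPM. The groups are apart for both, and Ifit2 fell by 2.24 on the log2 scale (SE 0.21, adjusted p 3.1e-05). Ifit3 had 0 counts in TKO-2i and 0, 2 and 2 in TKO-serum, at or under the floor in every library. Ifit copies are similar in sequence, and how reads were divided among them is uncertain.

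Bst2 (tetherin), which holds budding virions on the cell surface, was the most abundant of the 36 genes in TPM. It had 131, 128 and 133 TPM in TKO-2i and 109, 107 and 109 TPM in TKO-serum. The groups do not overlap, and it rose by 0.41 on the log2 scale (SE 0.09, adjusted p 0.0034). The remaining effectors did not pass. Mx1, a dynamin-like GTPase, had 11, 19 and 9 counts against 3, 12 and 8 (adjusted p 0.14). Mx2, annotated as a polymorphic pseudogene, had 19, 12 and 12 counts against 9, 7 and 8 (adjusted p 0.053), and passed on log2(TPM + 0.1) with limma at a log2 fold change of 0.94. Rsad2 (viperin), which makes a chain-terminating nucleotide, had 20, 14 and 10 counts against 21, 20 and 30 (adjusted p 0.13).

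ISG15, a ubiquitin-like modifier, and Usp18, the protease that removes it and also damps the receptor, were both near silent. Isg15 had 7, 5 and 3 counts in TKO-2i and 5, 12 and 10 in TKO-serum. Usp18 had 0 in TKO-2i and 1, 2 and 0 in TKO-serum, at or under the floor in every library. The filter left out both.

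Of the ADP-ribosylation genes, Parp9 and its partner Dtx3l did not pass. Their log2 fold changes were 0.09 (adjusted p 0.24) and -0.16 (adjusted p 0.096), with means of 8.01 ± 0.744 and 8.29 ± 0.390 TPM for Parp9 in TKO-2i and TKO-serum. Dtx3l passed without TKO-2i replicate 2 (-0.21) and with a minimum of 10 counts in every library (-0.20). The 2 genes overlap by 682 bases on opposite strands, and Parp9 also overlaps the antisense transcript Gm15564, which had a mean of 85.2 TPM, so their counts are uncertain. Parp14, another of these transferases, had 416, 537 and 411 counts against 498, 765 and 559. Its groups overlap, and its log2 fold change of -0.34 passed (SE 0.12, adjusted p 0.031). It did not pass without TKO-2i replicate 1 (-0.29) or 3 (-0.30), or without TKO-serum replicate 1 (-0.35) or 2 (-0.27), or in limma on log2(TPM + 0.1) (-0.40) or log2(TPM + 1) (-0.28).

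The remaining interferon-induced genes held some of the widest differences. Xaf1, a promoter of apoptosis that binds XIAP, had 46.4, 51.2 and 53.2 TPM in TKO-2i and 10.8, 10.9 and 11.2 TPM in TKO-serum. Xaf1 (ENSMUSG00000040483, chr11:72301629-72313733, GRCm38) rose by 2.32 on the log2 scale (SE 0.07, adjusted p 8.4e-08). Ifi27, a small membrane protein, had 7.22, 7.50 and 7.07 TPM against 1.48, 1.16 and 1.56 TPM and rose by 2.58 (SE 0.20, adjusted p 8.7e-06). Ifi35 had 21.4, 20.7 and 24.1 TPM against 6.29, 7.04 and 7.58 TPM and rose by 1.78 (SE 0.12, adjusted p 4.1e-06). All TKO-2i libraries were above all TKO-serum libraries for each of the 3 genes. Ifi27 has similar copies in the genome, which makes its counts uncertain. Rtp4, a receptor-transporting protein, had 6, 7 and 11 counts against 3, 7 and 3 and was left out by the filter.

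**Figure D2:**
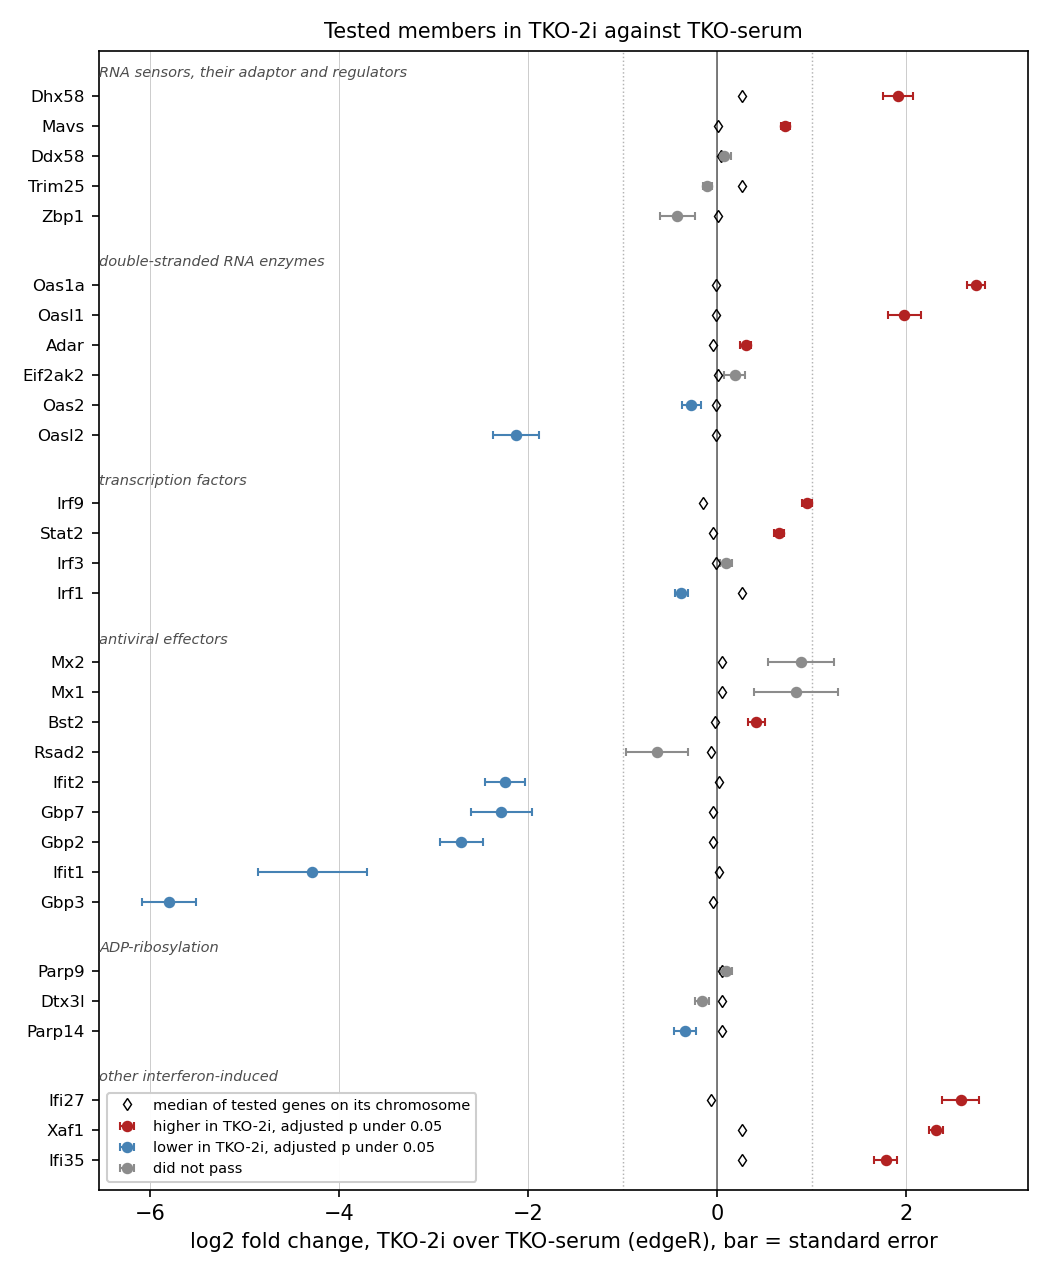
Log2 fold change of TKO-2i over TKO-serum for the 30 tested members by role, from edgeR (points, with bars of 1 standard error), with an open diamond at the median of all tested genes on the same chromosome. Values run from -5.80 for Gbp3 to 2.74 for Oas1a, and those of Gbp3 and Ifit1 depend on the prior count because TKO-2i held 0 to 2 counts per library.

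Chromosomes differed in their own medians. Over all tested genes the median log2 fold change was 0.26 on chromosome 11, which holds 5 members, 0.41 on chromosome 6 and -0.15 on chromosome 14. Minus the median of its chromosome, the log2 fold change was 1.65 for Dhx58, 2.05 for Xaf1, 1.52 for Ifi35, -0.64 for Irf1, -0.37 for Trim25 and 1.10 for Irf9. No member that passed changed direction. The median over tested members was then 0.07.

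The listed genes of the oligoadenylate synthetase cluster on chromosome 5 were divided. Only genes of the lists were read, so other genes may lie between them. Oas1c, Oas1b, Oas1g and Oas1a lie in that order and were all higher in TKO-2i, with log2 fold changes of 0.56, 1.36, 2.09 and 2.74. Oas3, the next listed gene before Oas1c, did not pass in edgeR (-0.29, adjusted p 0.12), though without TKO-2i replicate 2 it was -0.37 and passed. Oas2, at the end of the listed genes, was lower in the reported fit, narrowly. Oas1b, Oas1c and Oas3 were named after their values were seen.

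Of the 36 members, 14 had at least 2 transcripts with a mean of 1 TPM or more. For Ddx58 the leading transcript was ENSMUST00000137903, annotated as a processed transcript without a coding sequence, at 13.4, 14.7 and 15.9 TPM in TKO-2i and 11.9, 12.5 and 11.7 TPM in TKO-serum. The full coding transcript, ENSMUST00000037907, had 4.47, 5.69 and 5.35 TPM against 7.25, 7.62 and 6.66 TPM. Within a gene whose total did not pass, the non-coding transcript was higher in all TKO-2i libraries and the coding transcript in all TKO-serum libraries. These transcript levels were not tested, and the division of reads between overlapping transcripts is uncertain.

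Upstream of the response, all 20 interferon ligand genes were at or under the floor in every library, and none was tested. Of these, 18 had 0 counts throughout, Ifnb1 among them. Ifng had 2 counts in TKO-serum replicate 1 and Ifna16 had 1 each in TKO-serum replicates 2 and 3. In a poly(A) library this limits the level in the bulk and says nothing of rare cells. The receptors were expressed. Ifnar1, a chain of the type I receptor, had means of 17.4 ± 1.02 and 19.2 ± 1.02 TPM and did not pass (log2 fold change -0.06, adjusted p 0.31). Of the 6 receptor genes 2 were higher (33.3%), Ifngr1 (0.44) and Il10rb (0.71), and Ifnar2 was lower (16.7%; -0.32), beside 31.9% and 30.6% of all tested genes. These 3 were named after their values were seen. Ifnar2 did not pass without TKO-serum replicate 3 (-0.26), nor Il10rb without TKO-2i replicate 1 (0.56) or 2 (0.60) or TKO-serum replicate 2 (0.74) or 3 (0.58), nor with DESeq2 (0.70). In limma on log2(TPM + 0.1) and log2(TPM + 1) neither Ifngr1 (0.35 and 0.26) nor Il10rb (0.65 and 0.36) passed.

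Between receptor and nucleus, Jak kinases and feedback inhibitors were read next. Ptpn6 (SHP-1), a phosphatase that dampens Jak signalling, had 30.4, 34.0 and 30.2 TPM in TKO-2i and 13.3, 12.6 and 15.1 TPM in TKO-serum. It rose by 1.13 (SE 0.08, adjusted p 6.1e-06), or 0.72 minus the median of chromosome 6. Socs3, an inhibitor that LIF also induces, was the most abundant of these, with 49.1, 52.3 and 55.0 TPM against 69.2, 69.7 and 71.0 TPM. The groups do not overlap, and Socs3 fell by 0.32 (adjusted p 0.019). It did not pass without TKO-serum replicate 1 (-0.29) or 3 (-0.30). Named after their values were seen, Tyk2 (0.46), Jak1 (0.43), Jak2 (0.24) and Ptpn2 (0.16) were higher and Ptpn1 (-0.57) was lower. Jak2 did not pass without TKO-2i replicate 3 (0.22) or TKO-serum replicate 1 (0.22) or 3 (0.24), with DESeq2 (0.23), without the filter (0.22), or in limma on log2(TPM + 0.1) (0.15) or log2(TPM + 1) (0.12). Nor did Ptpn2 without TKO-2i replicate 1 (0.15) or 3 (0.17) or TKO-serum replicate 1 (0.17) or 3 (0.12), with DESeq2 (0.15), without the filter (0.14), with a minimum of 10 counts in every library (0.12), or in those limma fits (0.11 and 0.10).

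The cytosolic DNA-sensing list held the widest difference among the related genes outside those near the floor. Sting1 (annotated Tmem173), the adaptor of DNA sensing, had 483, 468 and 511 counts in TKO-2i and 19, 24 and 21 in TKO-serum, or 5.68, 6.42 and 6.32 TPM against 0.274, 0.277 and 0.268 TPM. The libraries of each medium were alike, and Sting1 rose by 4.57 on the log2 scale (SE 0.12, adjusted p 3.7e-08). Aim2, which builds an inflammasome on DNA, had 69.5, 83.2 and 74.6 TPM against 28.9, 31.8 and 31.5 TPM and rose by 1.32 (SE 0.05, adjusted p 2.8e-07). Trex1, the exonuclease that removes cytosolic DNA, rose by 1.05 (adjusted p 0.00012). Enpp1, which breaks down the messenger cGAMP, had 13, 22 and 11 counts against 53, 57 and 55 and fell by 1.78 (adjusted p 0.00047). Mre11a, with the highest mean of the list over all 6 libraries, did not pass (-0.00, adjusted p 0.96). In TKO-2i alone Aim2 had a higher mean (75.8 TPM, against 51.8 TPM for Mre11a). In all, 4 of 8 tested genes were higher (50.0%) and 2 lower (25%), beside 31.9% and 30.6% of all tested genes. Cgas (0.81) and Ddx41 (-0.29), named after their values were seen, complete them. Ifi204 and Ifi205 were at or under the floor.

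Of 8 enzymes that clear the cell's own nucleic acid 4 were higher (50.0%) and 1 lower (12.5%), beside 31.9% and 30.6% of all tested genes. None of them passed with a fold change of 2 or more. Rnaseh2a, a subunit of the enzyme that cuts RNA out of DNA, was the most abundant, with means of 125 ± 7.50 and 121 ± 2.10 TPM. It did not pass (0.16, adjusted p 0.12), though without TKO-2i replicate 2 it was 0.25 and passed. With replicate number as a block it was 0.16 and also passed. Named after their values were seen, the higher genes were Rnaset2a (0.91), Dnase2a (0.76), Rnaseh2b (0.57) and Skiv2l (0.27), and the lower was Samhd1 (-0.25). Skiv2l did not pass in limma on log2(TPM + 0.1) or log2(TPM + 1), at 0.10 in each.

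Of 7 endosomal Toll-like receptor genes and adaptors 4 were tested, 3 higher (75%) and 1 lower (25%), beside 31.9% and 30.6% of all tested genes. Tlr3, the receptor for double-stranded RNA, had 12, 14 and 9 counts against 30, 45 and 37, a log2 fold change of -1.60 (SE 0.23, adjusted p 0.00039). In TPM its groups overlap, and with counts from length-scaled TPM the log2 fold change was -0.52 and did not pass, nor did it in limma on log2(TPM + 0.1) (-0.44) or log2(TPM + 1) (-0.16). Tlr7, named after its values were seen, had 0 counts in TKO-2i and 5, 9 and 8 in TKO-serum, at least 2.30-fold higher in TKO-serum against a floor of 3 counts per library, and was not tested. Tlr8 and Tlr9 had 0 counts throughout. Myd88, the adaptor with the highest level, rose by 0.39 (adjusted p 0.0093). Ticam1 (0.43) and Unc93b1 (0.30), named after their values were seen, were the other higher genes. Unc93b1 did not pass without TKO-2i replicate 1 (0.22) or TKO-serum replicate 1 (0.33), 2 (0.27) or 3 (0.31), nor with DESeq2 (0.30), no filter (0.29) or counts from length-scaled TPM (0.05), and it reversed in limma on log2(TPM + 0.1) to -0.04 and on log2(TPM + 1) to -0.03. On those limma scales Ticam1 did not pass (0.32 and 0.23).

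A list of 18 kinases, ubiquitin ligases and other factors linked to signalling through Mavs was tested in full. Not all of them act downstream of Mavs. In this list 12 were higher (66.7%) and 3 lower (16.7%), beside 31.9% and 30.6% of all tested genes. Zc3hav1 (ZAP), which binds CG-rich viral RNA, had 41.8, 52.7 and 42.4 TPM in TKO-2i and 10.01, 11.8 and 10.3 TPM in TKO-serum. It rose by 2.19 (SE 0.08, adjusted p 1.3e-07), or 1.78 minus the median of chromosome 6. Ikbke, a kinase of Irf3, rose by 1.61 (SE 0.09, adjusted p 1.6e-06). Tax1bp1, an adaptor of a brake on the pathway and the most abundant gene of the list, rose by 0.33 (adjusted p 0.00088) but stood at -0.08 minus the median of chromosome 6. The 3 lower genes, named after their values were seen, were Rnf125 (-0.86), Chuk (-0.34) and Nfkb1 (-0.32). Chuk did not pass with counts from length-scaled TPM (-0.21) or in limma on log2(TPM + 0.1) or log2(TPM + 1) (-0.30 in each), nor Nfkb1 in the first of these limma fits (-0.32).

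Other interferon regulatory factors and their binding proteins moved in both directions. Irf4 had 0, 1 and 0 counts in TKO-2i against 9, 12 and 17, a ratio of TKO-serum to TKO-2i of 36.3 with a counting interval of 6.13 to 1470. Irf8 had 13, 5 and 10 counts against 32, 37 and 33 and fell by 1.79 (SE 0.31, adjusted p 0.0011). Both are factors of blood cells, at or below a mean of 0.385 TPM here. Irf5 rose by 1.37 (adjusted p 0.00014), or 0.96 minus the median of chromosome 6. Irf2bp1 fell by 1.11 (adjusted p 2.4e-06), and Irf2bpl, the most abundant of these, rose by 0.60 (adjusted p 1.4e-05). Irf2 rose by 1.03 (adjusted p 0.025), but did not pass without TKO-2i replicate 2 (0.69) or TKO-serum replicate 2 (1.12) or 3 (0.88), with DESeq2 (1.02), or in limma on log2(TPM + 0.1) (1.03) or log2(TPM + 1) (0.36). Irf4 did not pass in the last of these (-0.11). Irf2bp2 (-0.23), named after its values were seen, was also lower. Irf2bp2 did not pass without TKO-serum replicate 1 (-0.20), 2 (-0.24) or 3 (-0.24).

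A further list of 37 interferon-stimulated genes had 27 tested, 7 higher (25.9%) and 15 lower (55.6%), beside 31.9% and 30.6% of all tested genes. With a fold change of at least 2, 5 were higher and 10 lower (18.5% and 37.0%, beside 7.72% and 15.6%). Cxcl10, a chemokine, had 2, 1 and 2 counts in TKO-2i against 27, 41 and 29, a ratio of 18.5 with a counting interval of 7.67 to 58.3. Ddx60, a helicase, had 17, 23 and 28 counts against 119, 153 and 136 and fell by 2.51 (SE 0.19, adjusted p 7.9e-06). On the higher side, Isg20, an exonuclease, had 78, 100 and 128 counts against 5, 16 and 13 and rose by 3.24 (SE 0.32, adjusted p 3.7e-05). Sp100, a nuclear body protein, rose by 2.83 (SE 0.30, adjusted p 6.2e-05). Ifitm2, which blocks virus entry, was the most abundant, with means of 517 ± 14.6 and 579 ± 28.6 TPM, and did not pass (-0.04, adjusted p 0.76). Over all 124 related genes 89 were tested, of which 40 were higher (44.9%) and 31 lower (34.8%), again beside 31.9% and 30.6%, and their median log2 fold change was 0.11.

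Promoters were searched in RefSeq windows of GRCm38.p6 from 250 bases before to 50 bases after each start. The core of the interferon-stimulated response element, GAAANNGAAA on either strand, was in the windows of 13 of the 26 members that have one (50.0%), and in those of 1079 of 27025 genes (3.99%). Using the 250 bases before the start alone, it was in 10 of 26 (38.5%) and in 3.46% of genes. The gamma-activated site TTCNNNGAA, which reads alike on both strands, was in 8 of 26 members (30.8%) and in 9.55% of genes. No window was listed for 10 members. The members were chosen as interferon genes, so the shares describe the list. A match is a description, not a site shown to be bound. Matches before the start lay in genes that rose (Oas1a, Bst2 and Stat2), in genes that fell (Gbp7, Gbp3, Gbp2 and Ifit1) and in members left out by the filter (Isg15 and Ifit3), as well as in Rsad2. The letters were not found in the windows of Oasl1, Oasl2, Xaf1, Mavs, Irf9 or Irf7. Nor were they in those of Ifit2, Ifi35, Adar, Irf1, Irf3, Trim25 or Dtx3l.

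The stretches around these matches are shown for the Gbp neighbours and Ifit1, which fell, then for Oas1a, Bst2 and Stat2, which rose, and for Isg15, which was near silent, because the same letters stand in all 3 kinds. Each is written 5′ to 3′ on the gene's own strand, with the matches to GAAANNGAAA or its reverse complement TTTCNNTTTC, overlapping ones joined, in capitals. The first 3 are plus-strand sequences at chr3:142530263-142530312, chr3:142559979-142560034 and chr3:142620584-142620633. Ifit1 is shown at chr19:34640765-34640814 on the plus strand, where a further match follows in lower case. The others are at chr5:120907526-120907565 (minus strand), chr8:71537567-71537622 (minus), chr10:128270256-128270305 (plus) and chr4:156200855-156200916 (minus). Sequences are RefSeq's, build GRCm38.p6.
Gbp7: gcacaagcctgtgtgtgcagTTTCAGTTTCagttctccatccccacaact
Gbp3: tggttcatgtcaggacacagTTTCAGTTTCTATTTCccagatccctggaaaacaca
Gbp2: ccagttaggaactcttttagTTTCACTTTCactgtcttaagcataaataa
Ifit1: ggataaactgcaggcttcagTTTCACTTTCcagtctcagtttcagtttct
Oas1a: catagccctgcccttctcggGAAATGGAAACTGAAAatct
Bst2: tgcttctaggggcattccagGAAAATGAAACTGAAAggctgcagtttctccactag
Stat2: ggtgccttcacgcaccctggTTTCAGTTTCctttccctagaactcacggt
Isg15: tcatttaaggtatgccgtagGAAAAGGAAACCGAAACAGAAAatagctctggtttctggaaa

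The Gbp matches ended 43, 29 and 49 bases before the start in Gbp7, Gbp3 and Gbp2, and the match in Oas1a ended 4 bases before it. Those of Isg15 and Bst2 ended 56 and 114 bases before the start, and that of Stat2 212 bases before it. Gbp3 held 2 overlapping matches, Oas1a and Bst2 held 2 each, and Isg15 held 3.

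Markers of other cell types were read in the same libraries, and the shares of all tested genes beside their calls are 31.9% higher and 30.6% lower. Of 8 macrophage markers 3 were tested, 1 higher (33.3%) and 2 lower (66.7%), with sums of 23.8, 32.2 and 29.1 TPM in TKO-2i and 19.0, 22.5 and 23.7 TPM in TKO-serum, nearly all from Cd68. The defining markers Adgre1, Lyz2 and Tyrobp were at or under the floor in every library and Ptprc had 1 to 5 counts. The lower markers were Csf1r, with 0, 1 and 1 counts against 10, 14 and 18 (a ratio of TKO-serum to TKO-2i of 20.04 with a counting interval of 5.21 to 171, adjusted p 0.00039), and Itgam, with 53, 56 and 65 counts against 90, 149 and 126 (log2 fold change -0.99, adjusted p 0.00052). Cd68 was the higher one (0.52, adjusted p 0.00039). The 8 fibroblast markers summed to 6.10, 6.79 and 5.98 TPM against 6.48, 7.06 and 6.58 TPM, with Thy1 the most abundant. Of the 4 tested, Pdgfrb was higher (1.62), and Col1a2 (-1.55) and Thy1 (-0.42) were lower. Dcn, left out by the filter, had 0, 1 and 0 counts against 11, 14 and 8, a ratio of TKO-serum to TKO-2i of 31.5 with a counting interval of 5.27 to 1281.

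Other marker lists moved with the medium. Of 7 extraembryonic endoderm markers 5 were tested and 4 of these were lower (80%: Gata6, Sox17, Sox7 and Foxa2), beside 30.6% of all tested genes, with sums of 4.42, 5.34 and 4.17 TPM in TKO-2i and 8.32, 9.92 and 10.6 TPM in TKO-serum, Gata4 being the most abundant and Ttr at 0 in TKO-2i. Of 6 trophoblast markers 2 were higher (33.3%: Cdx2 and Eomes) and 3 lower (50.0%: Gata3, Krt7 and Plac1), beside 31.9% and 30.6%. The sums of these 6 were 9.77, 9.52 and 10.2 TPM against 3.93, 4.33 and 3.84 TPM. Eomes had the highest mean over all 6 libraries, but in TKO-serum Plac1 was higher (means of 1.07 TPM for Plac1 and 0.928 TPM for Eomes). All 7 markers of 2-cell-like cells, a rare state in ES cultures, were lower, with sums of 1.75, 1.65 and 1.53 TPM against 31.9, 34.9 and 35.8 TPM, and Tmem92 the most abundant. Single markers were named after their values were seen. The part of these cell states in the results for the interferon genes was not tested.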

How the data were processed

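Poly(A) RNA of 3 TKO-2i and 3 TKO-serum libraries was analysed from the transcript tables the authors deposited, which hold estimated counts (expected counts, not normalised), TPM, and transcript lengths and effective lengths in bases. The deposited tables have the columns that salmon writes, and the submitters name build mm10; the libraries were strand specific, but the tool's version, and whether the quantification used the strand, are not given in the sources. Estimated counts and TPM were summed per gene with GENCODE M21 names: 136100 of 136288 transcripts matched, and 0.0473% to 0.0643% of counts in each library were unmatched. Rounded counts were fitted in edgeR 4.0.16 (R 4.3.3) with filterByExpr, TMM factors and glmQLFit on condition alone. Benjamini-Hochberg adjustment was over all 18177 tested genes, and adjusted p under 0.05 was a call. Summaries used Python 3.11.15, pandas 2.3.3, numpy 2.4.6 and scipy 1.17.1. The genes named are all 36 members, the 3 methyltransferases and, from each of 9 related lists, at most 5 called genes with a fold change of at least 2 and the gene with the highest mean TPM; others are said to be named after their values were seen. The members and all lists were chosen with earlier results of these data known. Related lists cover ligands, receptors, Jak signalling with its inhibitors, DNA sensing, nucleases and Toll-like receptors. They also cover factors linked to signalling through Mavs, other interferon regulatory factors and other stimulated genes. Marker lists cover ES cells, macrophages, fibroblasts, extraembryonic endoderm, trophoblast and 2-cell-like cells. Alternatives were DESeq2 1.42.0, its size factors in edgeR, counts from length-scaled TPM, no filter, a minimum of 10 counts in each library, log2(TPM + 1) or log2(TPM + 0.1) in limma 3.58.1, replicate number as a block, leaving out each library, and subtracting chromosome medians. For the related genes these were chosen after seeing the data. The fit was tested on simulated data with 200 genes changed, far fewer than the 11361 called here. It recovered 26 of 62 genes changed by 0.5 on the log2 scale, 48 of 66 changed by 1 and 66 of 67 changed by 2. There were 12 false calls. Small changes can thus be missed. Counting intervals are exact at 95% and, like the floor of 3 counts per library, cover counting error only. A permutation of 3 against 3 samples cannot go below p 0.1, so no such test was used.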

Additional observations from a re-analysis of the deposited data

How the results depend on the processing

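The members that passed numbered 20 and ranged from 18 to 21 when 1 library was left out. Under the other fits they numbered 18 to 24, always within 1.5 times the reported count. The number with a fold change of at least 2 was 12, and 7 on log2(TPM + 1) with limma, a scale that compresses low values. The lower ones among them numbered 6, but 2 on log2(TPM + 1) and 2 with at least 10 counts in every sample, a filter that removes genes near 0 in TKO-2i. The members' median log2 fold change of 0.09 was -0.016 with DESeq2, -0.027 without a filter, 0.021 with counts from length-scaled TPM, and -0.039 and -0.043 on log2(TPM + 1) and log2(TPM + 0.1) with limma. It is thus near 0 and has no stable sign. The first 2 of these settings included all 36 members. Of the other named genes, Tax1bp1 reversed to -0.077 minus its chromosome's median, and Unc93b1 to -0.040 and -0.030 on log2(TPM + 0.1) and log2(TPM + 1), where the cause was not tested. Replicate numbers are shared between the groups. For libraries of the same number, the deviations of log2 CPM from the group mean correlated at 0.24, 0.33 and 0.01. Correlations between different numbers were not computed, so whether the numbers mark pairs is not known. With replicate as a block 24 members passed, Trim25, Zbp1, Eif2ak2 and Dtx3l besides the 20, 12 in each direction, and 12539 of all genes did where 11361 had. The filter left out Ifih1, Irf7, Ifit3, Isg15, Usp18 and Rtp4 in the reported fit, and none of them passed without it or with DESeq2. For the related genes every alternative was chosen after seeing the data.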
